A study of Mus musculus with 24 samples.

Results

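Rods detect dim light through a cascade of proteins in their outer segments. When the photopigment absorbs light it activates transducin, a G protein of alpha, beta and gamma subunits; transducin removes the inhibitory subunits of a cyclic GMP phosphodiesterase, cyclic GMP falls, and the cyclic nucleotide-gated channel closes. Arrestin then binds the photopigment and ends the signal. The genes described here are the rod members of that cascade for which values were analysed: Gnat1, Gnb1 and Gngt1 (the alpha, beta and gamma subunits of rod transducin), Pde6a, Pde6b and Pde6g (the catalytic alpha and beta subunits and the inhibitory gamma subunit of the phosphodiesterase), Cnga1 and Cngb1 (the channel subunits) and Sag (rod arrestin). They were chosen by symbol, and all 9 were found among the 56748 genes of the table; all 9 passed the filter on low counts in every comparison. Gnb1 is the one member that many other cell types also use.

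Counts came from 24 libraries of 12 mice, 3 in each of 8 groups: the neural retina, and the eye cup left after its removal, of wildtype mice and PRDM13-OE littermates, with or without doxycycline (dox). PRDM13-OE mice were heterozygous for an insert at Rosa26 in which the ubiquitous EF-1α promoter drives the reverse tetracycline transactivator and the TRE3G promoter drives human PRDM13, so that transactivator and cassette were present in every PRDM13-OE mouse and in no wildtype mouse, and no cell type was selected for expression. Both genotypes drank dox at 2 mg/ml in water with 10% sucrose, over 72 hours from P28; what the untreated mice drank was not given in the sources used here. The human transcript was not analysed here, so the induction was not checked in these libraries. A retina and an eye cup of the same group and number came from 1 mouse.

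Some libraries stood apart in genes of other tissues. The 15 lens crystallins summed to 12825 and 5659 CPM (counts scaled by library size times the TMM factor) in wildtype dox retinas 1 and 2, against 30.9 to 1011 CPM in the other 10 retinas. The 5 blood genes summed to 0.709 to 1.18 CPM in the PRDM13-OE dox retinas, where up to 2 of them were at 0, against 21.6 to 77.8 CPM in the other retinas; in eye cups they summed to 12.4 to 14.3 CPM in that group and to 238 to 3459 CPM elsewhere. The skeletal muscle genes summed to 46.3 CPM in PRDM13-OE untreated retina 1 and to 3.61 to 6.87 CPM in the other 11 retinas. The 12 RPE and pigment genes summed to 80.8 to 491 CPM in retinas and to 8336 to 55692 CPM in eye cups. Total counts were 16034800 to 21513207 per retina and 15825059 to 24908314 per eye cup, so that the member with the fewest counts, Gngt1, had at least 6890 per retina.

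Promoter sequence was available for 6 of the 9 members, and not for Gnat1, Pde6a and Pde6g. The 250 bases before the RefSeq start of Cnga1 and Sag, which had among the largest falls in PRDM13-OE dox retinas, and of Pde6b, which did not pass the test there, are shown so that the promoters of genes of a single cascade with different values can be compared. Each window was taken from the RefSeq promoters of GRCm38.p6 and matched the GRCm39 genome exactly once. Cnga1 lies at chr5:72800096-72800345 on the minus strand, inside the span of 72761039 to 72801618 that the deposited table gives for the gene. Sag lies at chr1:87731152-87731401 and Pde6b at chr5:108535989-108536238, both on the plus strand and upstream of the listed genes. Sequences read 5′ to 3′ along the gene, and capitals mark TAATCC, the letters of a CRX-type homeodomain site, and TGCTGA, the core of sites of NRL-type factors, searched on both strands (GGATTA and TCAGCA on the other). The motifs do not overlap each other.
Cnga1: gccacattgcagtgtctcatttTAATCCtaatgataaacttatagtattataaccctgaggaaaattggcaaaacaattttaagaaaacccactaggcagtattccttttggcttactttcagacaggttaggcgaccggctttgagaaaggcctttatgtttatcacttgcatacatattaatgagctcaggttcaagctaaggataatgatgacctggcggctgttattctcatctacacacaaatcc
Sag: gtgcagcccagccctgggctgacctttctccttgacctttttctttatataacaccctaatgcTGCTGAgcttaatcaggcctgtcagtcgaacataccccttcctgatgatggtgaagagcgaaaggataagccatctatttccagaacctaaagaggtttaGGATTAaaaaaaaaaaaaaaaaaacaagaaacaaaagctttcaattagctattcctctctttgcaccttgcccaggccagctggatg
Pde6b: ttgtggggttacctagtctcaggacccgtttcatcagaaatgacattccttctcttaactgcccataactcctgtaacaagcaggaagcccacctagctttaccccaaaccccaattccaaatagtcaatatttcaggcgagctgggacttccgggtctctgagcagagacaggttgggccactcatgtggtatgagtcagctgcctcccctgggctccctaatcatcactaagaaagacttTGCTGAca
TAATCC was present in the Cnga1 window (bases 228 to 223 before the start) and in the Sag window (bases 87 to 82, opposite strand). TGCTGA was present in the Sag window (bases 187 to 182) and in the Pde6b window (bases 8 to 3). Of the other windows read, Gngt1 held 1 TAATCC and Cngb1 held 2, and Gnb1 held neither motif. Over all 32851 mouse windows of this length, 6.25% held TAATCC and 16.1% held TGCTGA. These matches describe the letters only, and no binding was measured.

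In the untreated wildtype retina, the members spanned a wide range of levels. On the scale of FPKM, which divides counts by gene length and allows genes to be compared, Gnat1 was highest at 2441 ± 120 FPKM (SD, n = 3) and Gnb1 next at 1280 ± 50.5 FPKM. Pde6g, the small inhibitory subunit, stood at 852 ± 56.0 FPKM, above Pde6a at 543 ± 16.4 FPKM. The 3 mice of each of these 4 genes did not overlap those of the next. Sag (462 ± 24.8 FPKM) and Pde6b (448 ± 16.0 FPKM) overlapped each other. The 3 lowest members were Cnga1 (129 ± 4.50 FPKM), Gngt1 (126 ± 15.3 FPKM) and Cngb1 (115 ± 5.34 FPKM). Gngt1, between 112 and 142 FPKM, overlapped both channel genes, while Cnga1 (125 to 134 FPKM) lay above Cngb1 (108 to 118 FPKM). Together the 9 genes took 2.74% to 2.89% of all counts in these retinas.

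**Figure D1:**
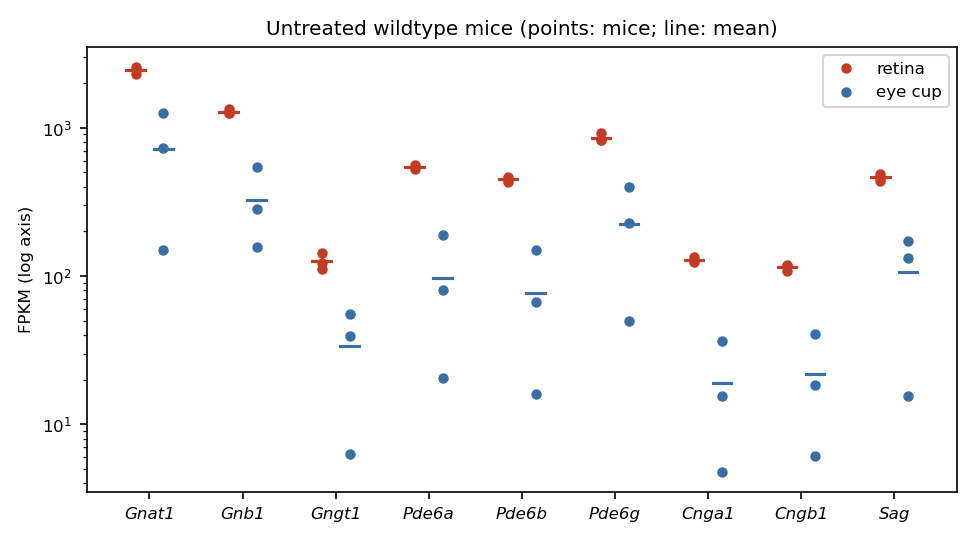
FPKM of the 9 rod cascade genes (log axis) in retina (red) and eye cup (blue) of the 3 untreated wildtype mice, with points for mice and lines for means. Retinas lie close together, from 2441 FPKM for Gnat1 to 115 FPKM for Cngb1 on average, and eye cups spread widely and lie lower for every gene.

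With dox, PRDM13-OE retinas had lower levels of some but not all members than wildtype retinas. With edgeR's quasi-likelihood test, 6 of the 9 were lower at an adjusted p below 0.05: the transducin alpha subunit Gnat1, the channel subunit Cnga1 and arrestin Sag by the most, and Gngt1, Pde6g and Cngb1 by less. At any fold, 7.51% of the 20560 genes tested were lower. None of the 9 also passed the study's cutoff of 1 on the log2 scale, which 2.41% of genes did in either direction. The DESeq2 test gave 6 and 0, where 2493 of all genes passed at any fold in either direction and 394 were called. The groups did not overlap for 6 members, all lower, as for 15.4% of genes tested. The members' median log2 fold change was -0.15 and that of all genes tested was 0.01. The members took 2.19% to 2.47% of counts in PRDM13-OE dox retinas and 2.57% to 2.59% in wildtype dox retinas. In bulk tissue, fewer rods and less RNA per rod cannot be told apart.

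Of the transducin subunits, Gnat1 measured 5286, 5410 and 6252 CPM in the 3 PRDM13-OE dox retinas and 7735, 7708 and 7272 CPM in the wildtype dox retinas. Every PRDM13-OE retina was below every wildtype retina, and below the 6 untreated retinas too, whose lowest value was 7778 CPM. The log2 fold change was -0.43 ± 0.05 (SE), and the level fell by 25.7% (edgeR adjusted p = 0.000201). Gnb1 measured 5130, 5495 and 5638 CPM against 5447, 5504 and 5610 CPM. These groups overlapped, and the log2 fold change of -0.03 had a 95% interval from -0.11 to 0.04 (edgeR adjusted p = 0.601). Gngt1 measured 407, 413 and 387 CPM against 455, 442 and 440.5 CPM, with no overlap between the groups. Its log2 fold change of -0.15 ± 0.04 was close to the threshold (edgeR adjusted p = 0.0421). The transducin genes thus had unequal differences, with Gnat1 alone past an adjusted p of 0.01.

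Of the phosphodiesterase genes, neither catalytic subunit passed the test, and the inhibitory subunit did. Pde6a, a catalytic subunit, measured 2389, 2559 and 2697 CPM in PRDM13-OE dox retinas and 2628, 2635 and 2539 CPM in wildtype dox retinas. Pde6b, the other catalytic subunit, measured 2142, 2160 and 2211 CPM against 2225, 2242 and 2170 CPM. The groups overlapped for both genes, with log2 fold changes of -0.04 (95% interval -0.12 to 0.05, edgeR adjusted p = 0.632) and -0.03 (-0.10 to 0.03, edgeR adjusted p = 0.518). Pde6g, the inhibitory subunit, measured 1801, 1938 and 2064 CPM against 2153, 2181 and 2082 CPM. Its groups did not overlap, although the highest PRDM13-OE value was within 20 CPM of the lowest wildtype value (log2 fold change -0.15 ± 0.04, edgeR adjusted p = 0.0461).

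The channel subunits differed from each other. Cnga1, which forms the conducting pore, measured 595, 591 and 644 CPM in PRDM13-OE dox retinas and 834, 835 and 864 CPM in wildtype dox retinas. Its log2 fold change was -0.48 ± 0.05, with the lowest p of the members, and the level fell by 28.1% (edgeR adjusted p = 3.63e-05). Cngb1, the modulatory subunit, measured 917, 979 and 1034 CPM against 1045, 1138 and 1085 CPM. Both genes had groups that did not overlap, and the Cngb1 log2 fold change was -0.16 ± 0.05 (edgeR adjusted p = 0.0497). Sag, rod arrestin, measured 2404, 2908 and 3143 CPM against 4030, 3683 and 4040 CPM. All PRDM13-OE dox values were below the lowest of the other 9 retinas, 3679 CPM, and the log2 fold change was -0.48 ± 0.08 (edgeR adjusted p = 0.00173), with the widest spread of the members among PRDM13-OE dox mice (coefficient of variation 13.4%).

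**Figure D2:**
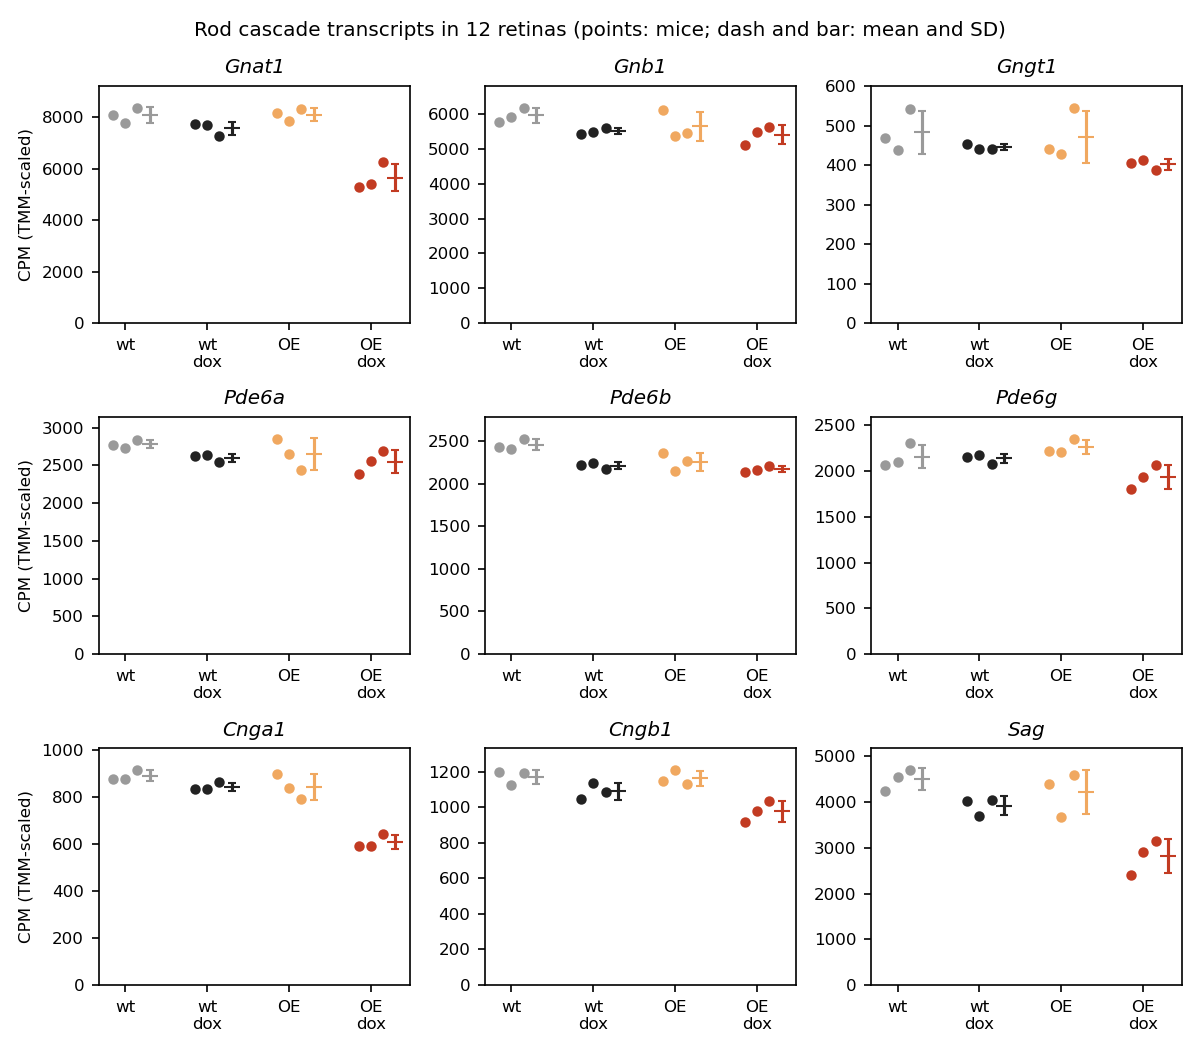
CPM (TMM-scaled) of each rod cascade gene in the 12 retinas by group (wt, wildtype; OE, PRDM13-OE), with a point per mouse and the group mean and SD beside them. Gnat1, Cnga1 and Sag are lowest in all 3 PRDM13-OE dox retinas. So are Gngt1, Pde6g and Cngb1, by less (for Pde6g, 2064 CPM at most against 2066 CPM at least elsewhere). Gnb1, Pde6a and Pde6b overlap between the dox groups.

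Gnat1, Cnga1 and Sag passed in each of the 6 fits that left out 1 retina and with library size in place of TMM scaling. Without wildtype dox retinas 1 and 2, which were high in crystallins, 1 wildtype dox retina is left, assumed to vary like the PRDM13-OE dox retinas; the log2 fold changes against it were -0.38 (Gnat1), -0.52 (Cnga1) and -0.54 (Sag). Gngt1 passed in 0, Pde6g in 1 and Cngb1 in 2 of the 6 fits that left out 1 retina, and none of these 3 passed with library size scaling (edgeR adjusted p from 0.327 to 0.392) or with all 12 retinas in one fit (0.0764 to 0.315). The number of members that passed was 3 without PRDM13-OE dox retina 1 or 2 or wildtype dox retina 2 or 3, 4 without wildtype dox retina 1, and 5 without PRDM13-OE dox retina 3. With the fold cutoff, 336 to 507 of all genes were called in these 6 fits, against 495 with no retina left out. The share of all genes at any fold was not counted in them. Library size scaling turned the log2 fold changes of Gnb1, Pde6a and Pde6b to about 0.06, 0.05 and 0.06, so that no direction can be given for them. On that scale the groups did not overlap for Gnat1, Cnga1 and Sag, which were lower (9.23% of genes tested were), and for Pde6b, which was higher (24.9% were); Gngt1, Pde6g and Cngb1 overlapped. With the crystallin level as a covariate over all 12 retinas, Cnga1 passed (log2 fold change -0.55, edgeR adjusted p = 0.00236), and Gnat1 (-0.36, adjusted p = 0.058) and Sag (-0.50, adjusted p = 0.0982) did not. The part of the lens and blood transcripts in the results was not tested otherwise. The markers of other retinal neurons summed to 2596 to 2721 CPM in PRDM13-OE dox retinas and 2945 to 3124 CPM in wildtype dox retinas, with 8 of the 22 genes lower and 1 higher at any fold. Of the other lists, all 15 crystallins and all 5 blood genes were called lower, 7 of 12 RPE and pigment genes were lower, Müller glia genes were 3 lower and 2 higher of 8, and 0 of 6 fibroblast and 0 of the 4 skeletal muscle genes tested passed.

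Within the PRDM13-OE genotype, dox retinas were compared with untreated retinas, which carried the same insert. Gnat1, Pde6g, Cnga1, Cngb1 and Sag were lower at any fold (5 of 9, against 2.96% of the 20603 genes tested), and none passed the fold cutoff, which 1.04% of genes did. Gnat1 measured 8162, 7842 and 8321 CPM untreated, and the log2 fold change was -0.52 ± 0.06 (edgeR adjusted p = 0.000148). Sag measured 4398, 3679 and 4588 CPM untreated (log2 fold change -0.59 ± 0.09, edgeR adjusted p = 0.00218). Cnga1 measured 902, 840 and 793 CPM untreated (log2 fold change -0.47 ± 0.06, edgeR adjusted p = 0.000326). All 3 genes passed in each of the 6 fits that left out 1 retina. Groups did not overlap for 6 members, these 3 among them, with PRDM13-OE dox lower, as for 9.95% of genes tested. Cngb1 (-0.26, adjusted p = 0.0167) passed in 4 and Pde6g (-0.23, adjusted p = 0.0327) in 3 of those fits. Gngt1 had a log2 fold change of -0.23 (edgeR adjusted p = 0.159) and that of Gnb1, Pde6a and Pde6b was -0.06 (adjusted p from 0.638 to 0.74). Of the other lists, all 5 blood genes were called lower, 3 of the 14 crystallins tested were lower at any fold, and the other retinal neuron markers were 5 lower and 1 higher of 22. All 7 skeletal muscle genes tested had log2 fold changes below 0 and 0 passed; without PRDM13-OE untreated retina 1, 5 members passed at any fold. The part of these transcripts in the members' values was not tested. This comparison shares its 3 dox retinas with the one above, so the values are not independent of it.

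Dox alone was examined in wildtype retinas. None of the 9 members passed at any fold with edgeR or with DESeq2, and 0.00485% of the 20631 genes tested passed (1 gene). All 9 log2 fold changes were below 0, from -0.20 (Sag) to -0.01 (Pde6g), and 5 had an unadjusted p below 0.05, as did 9.32% of all genes tested. The groups did not overlap for 6 members (Gnat1, Gnb1, Pde6a, Pde6b, Cnga1 and Sag), with dox lower, as for 7.92% of genes tested. With TMM scaling, this is the same number of members as in both comparisons of PRDM13-OE dox retinas. With library size scaling, 7 members were lower without overlap here (8.21% of genes tested). The number was then 3 between dox retinas (9.23%) and 5 for PRDM13-OE dox against untreated (6.82%). Pde6b was highest in untreated wildtype retinas, at 2435, 2412 and 2531 CPM, above all 3 wildtype dox values, and its log2 fold change was -0.15 ± 0.04 (edgeR adjusted p = 0.247). Without the filter on low counts, 3 members passed at any fold (Gnb1, Pde6b and Sag), as did 2.07% of the 28401 genes then tested. The crystallins summed to 12825, 5659 and 166 CPM in wildtype dox retinas and to 247 to 1011 CPM in untreated ones, so the groups overlapped, and 0 of 15 passed. All 15 were above 0 (median 3.28), 13 with an unadjusted edgeR p below 0.05. So were all 6 fibroblast and sclera genes (median 0.87, 6 below 0.05) and all 12 RPE and pigment genes (median 0.43, 4 below 0.05). The part of these transcripts in the members' values was not tested.

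Untreated PRDM13-OE and wildtype retinas were compared to see whether the insert without dox went with a difference. None of the 9 passed, and 0.00484% of the 20668 genes did (1 gene). DESeq2 gave 0 members, and 0 members had an unadjusted p below 0.05. Log2 fold changes ran from -0.11 (Pde6b) to 0.08 (Pde6g). For Gnat1 the difference was 0.01 with a 95% interval from -0.10 to 0.12, and for Cnga1 it was -0.07 with an interval from -0.20 to 0.07. The differences of PRDM13-OE dox from PRDM13-OE untreated retinas, -0.52 for Gnat1 and -0.47 for Cnga1, lay outside these intervals. Those of wildtype dox from wildtype untreated retinas, -0.09 and -0.08, lay inside them.

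**Figure D3:**
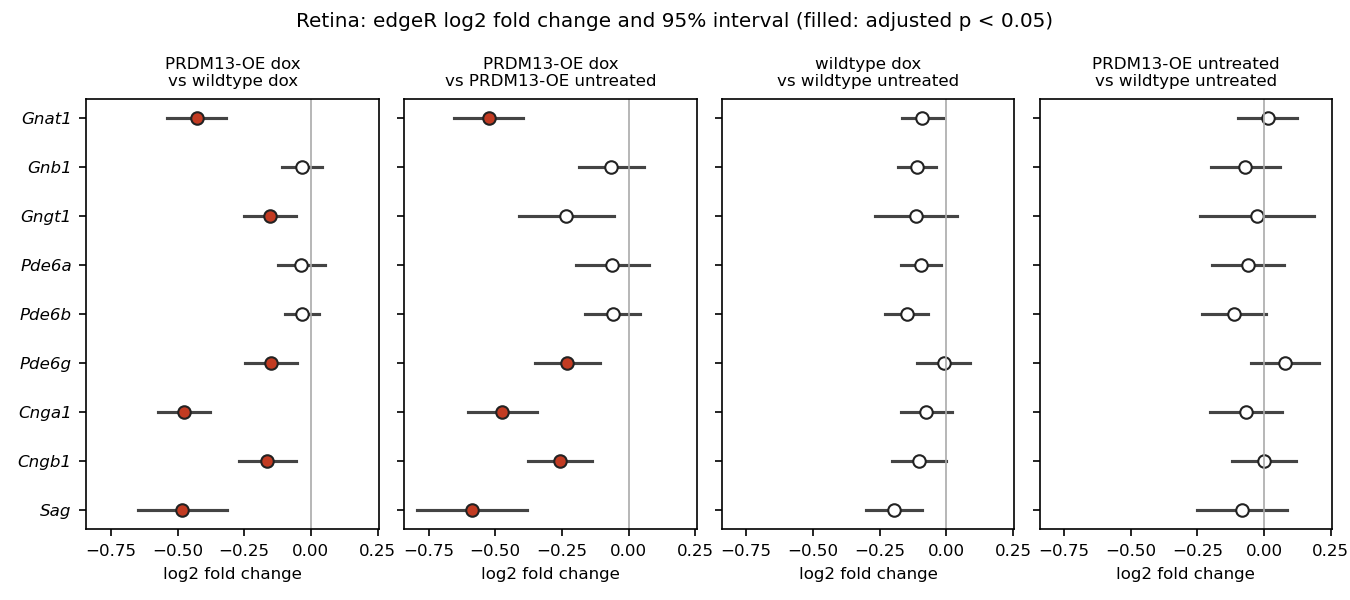
Log2 fold change of each rod cascade gene in 4 retina comparisons (edgeR), with 95% intervals; filled points had an adjusted p below 0.05. Gnat1, Cnga1 and Sag lie between -0.43 and -0.59 in both comparisons of PRDM13-OE dox retinas, and no gene is filled in the comparisons without that group.

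Whether the dox difference depended on genotype was tested by the interaction over all 12 retinas. Gnat1 (-0.43 ± 0.08 on the log2 scale, edgeR adjusted p = 0.00263) and Cnga1 (-0.40 ± 0.08, edgeR adjusted p = 0.00534) passed at any fold, 2 of 9 against 1.83% of the 22538 genes tested, and no member passed the fold cutoff, which 0.87% of genes did. Among genes of other tissues, 4 of the 5 blood genes were called lower in the interaction (median log2 estimate -5.85), and all 15 crystallins were below 0 with an unadjusted p below 0.05 (median -5.11), 1 of them called; the part of the blood genes was not tested. Gnat1 and Cnga1 passed in each of the 12 fits that left out 1 retina and with the crystallin covariate (edgeR adjusted p of 0.0307 and 0.0109). Sag had an estimate of similar size, -0.39 ± 0.12, that did not pass (edgeR adjusted p = 0.115; DESeq2 adjusted p = 0.0261). Without the filter on low counts, 4 members passed at any fold (Gnat1, Cnga1, Sag and Pde6g), as did 4.64% of the 30860 genes then tested. Estimates for Gnb1, Pde6a and Pde6b were 0.05, 0.04 and 0.09, with adjusted p from 0.523 to 0.881.

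Ratios of counts within a library do not depend on scaling between libraries, and 11 were taken after the fold changes had been seen: each other member over Pde6b, and subunits of a complex over each other. With 3 mice against 3, the exact permutation test (two-sided) cannot give a p below 0.1, so the ratios are given as values. In the retina, Cnga1 over Pde6b was 0.278, 0.274 and 0.291 in PRDM13-OE dox mice and 0.375, 0.372 and 0.398 in wildtype dox mice. Gnat1 over Pde6b was 2.47, 2.50 and 2.83 against 3.48, 3.44 and 3.35, and Sag over Pde6b was 1.12, 1.35 and 1.42 against 1.81, 1.64 and 1.86. In these 3 ratios all PRDM13-OE dox retinas were below all of the other 9 retinas. The same held for Gnat1 over Gnb1 (0.985 to 1.11 against 1.30 to 1.53 in the other 9) and for Cnga1 over Cngb1 (0.604 to 0.648 against 0.692 to 0.798). Thus the transcripts of the alpha and beta transducin subunits, and of both channel subunits, were in different proportion in that group, by the same counts as the fold changes. Ratios over Pde6b also separated without that group. Those of Gnat1, Pde6a, Pde6g and Cnga1 were higher in all wildtype dox than in all untreated wildtype retinas, by 0.06, 0.05, 0.14 and 0.07 on the log2 scale. Pde6a over Pde6b, 1.12 to 1.22 in PRDM13-OE dox retinas and 1.17 to 1.18 in wildtype dox retinas, overlapped.

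**Figure D4:**
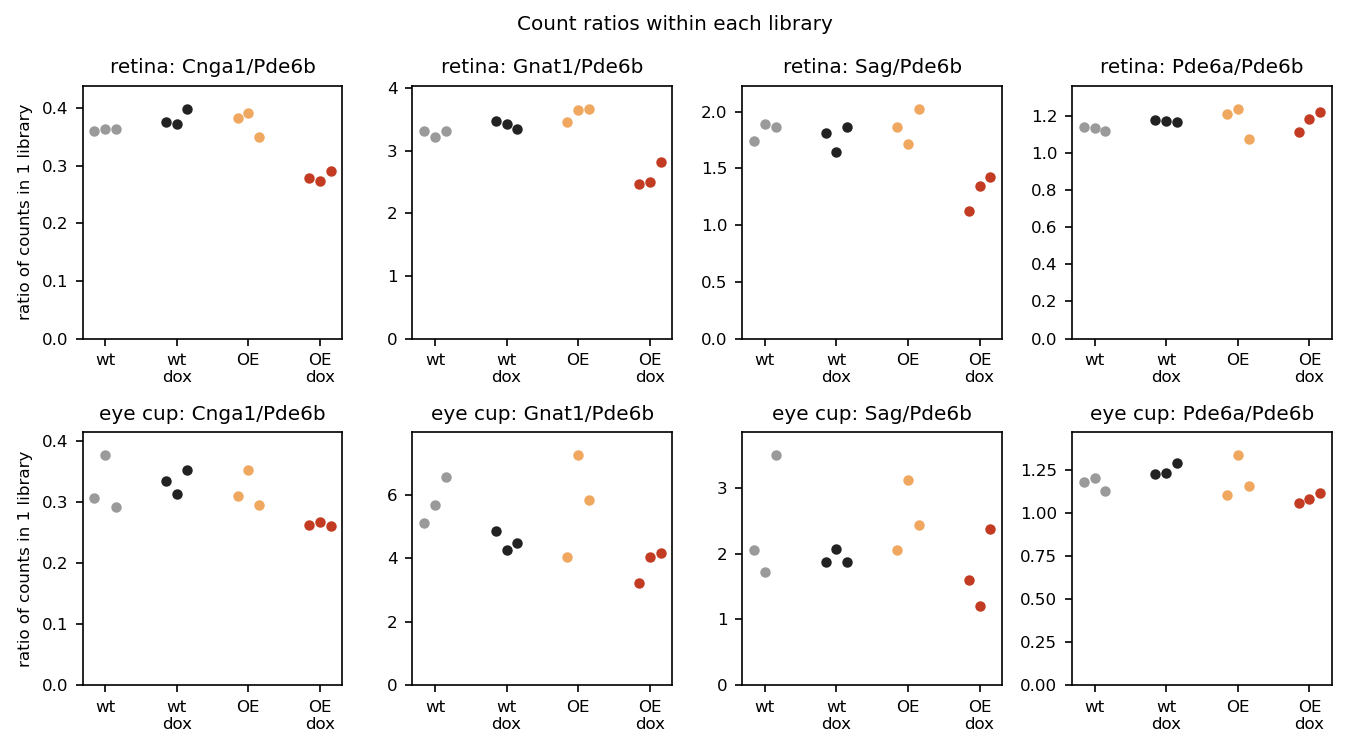
Ratios of counts within each library for 4 gene pairs, in retinas (top) and eye cups (bottom), by group (wt, wildtype; OE, PRDM13-OE), with a point per mouse. In retinas, PRDM13-OE dox lies below all other groups for Cnga1, Gnat1 and Sag over Pde6b, and not for Pde6a over Pde6b; in eye cups this separation is seen for Cnga1 over Pde6b.

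Other genes of the pathway were measured in the same comparison of dox retinas. Of the 8 cone counterparts of the members, 6 were lower at any fold and 1 higher, and 4 were called lower and 1 higher with the fold cutoff (median log2 fold change -1.10). Gnat2, the cone transducin alpha subunit, had a log2 fold change of -1.85 ± 0.06 (edgeR adjusted p = 1.05e-08) and Arr3, cone arrestin, of -1.96 ± 0.10 (adjusted p = 2.72e-07). Pde6c, the cone phosphodiesterase catalytic subunit, was higher, at 1.31 ± 0.09 (adjusted p = 2.26e-06). Cnga3, the cone counterpart of Cnga1, had -1.61 ± 0.16 (adjusted p = 6.08e-05). The summed level of the 8 cone genes was 518 to 546 CPM against 809 to 875 CPM. Counts of the rod and cone lists were not tested against each other.

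Of 11 genes of shut-off and calcium feedback, 8 were lower and 2 higher at any fold, and 2 were called lower with the fold cutoff (median -0.54). Grk1, the kinase that phosphorylates the photopigment before arrestin binds, fell by 0.85 on the log2 scale (edgeR adjusted p = 1.23e-05), and Rgs9, which speeds transducin's return to rest, fell by 1.42 (adjusted p = 2.36e-07). Slc24a1, the exchanger that works beside the rod channel, fell by 0.81 (adjusted p = 2.21e-06), and Guca1a, an activator of guanylate cyclase, by 1.81 with a standard error of 0.41 (adjusted p = 0.0133). Gucy2e, a guanylate cyclase, and Gnb5, the partner of Rgs9, were higher by 0.23 and 0.31 (adjusted p = 0.00534 and 0.000799). Among 12 transcription regulators of photoreceptors, 6 were lower and 2 higher at any fold, and 4 were called lower. Nrl, the leucine zipper factor that sets rod fate, fell by 0.50 (adjusted p = 2.28e-06) and Nr2e3, its nuclear receptor partner, by 1.40 (adjusted p = 3.78e-06), whereas Crx had -0.05 (adjusted p = 0.339).

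Counts in the eye cup, which holds RPE, choroid and sclera and has no rods of its own, came with a much wider spread. In untreated wildtype mice, the sum of the 9 members was 10049, 1597 and 5815 CPM in the eye cups and 27932, 27959 and 29619 CPM in the retinas of the same mice. All 9 members were higher in retina and called with the fold cutoff, against 19.3% of the 21979 genes tested that were called higher. Log2 differences ran from 1.77 ± 0.64 (Gnat1, edgeR adjusted p = 0.0428) to 2.77 ± 0.63 (Cnga1, edgeR adjusted p = 0.00653). The number called was 3 without eye cup 3, 5 without retina 1, 2 or 3, and 9 without eye cup 1 or 2. Of all genes, 8755 to 10501 were called in either direction in these fits. With no library left out, 4238 were called higher and 5687 lower. Gnb1, Cnga1 and Cngb1 passed in every fit that left out 1 library. The 9 members did not differ by the same amount. Cnga1 over Cngb1 was 0.733 to 0.780 in these retinas and 0.528 to 0.608 in the eye cups, and Gnat1 over Pde6b was 3.23 to 3.32 and 5.12 to 6.55. All 3 mice showed both differences.

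Members varied together among eye cups. The sum ran from 1597 to 17839 CPM over the 12 eye cups, and pairs of members had correlations of log2 values from 0.88 to 1.00 (36 pairs, median 0.97) over these libraries, whose groups and total counts differ. Markers of other retinal neurons, which the eye cup also lacks, summed to 525 to 1945 CPM, with up to 4 of the 22 at 0. The highest sums of members, 17839, 17072 and 13887 CPM, were in eye cups with 1896, 1785 and 1945 CPM of neuron markers. The lowest, 1597 CPM, had 771 CPM. The order was not the same throughout: the eye cup with the lowest neuron sum, 525 CPM, had 3372 CPM of members, and wildtype dox eye cup 3 had 1724 CPM of neuron markers and 9500 CPM of members, where wildtype untreated eye cup 1 had 1074 and 10049 CPM. The members' sum was 2.07 to 9.56 times the neuron sum. How far retina left in the dissection sets the members' level was not tested by other means.

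**Figure D5:**
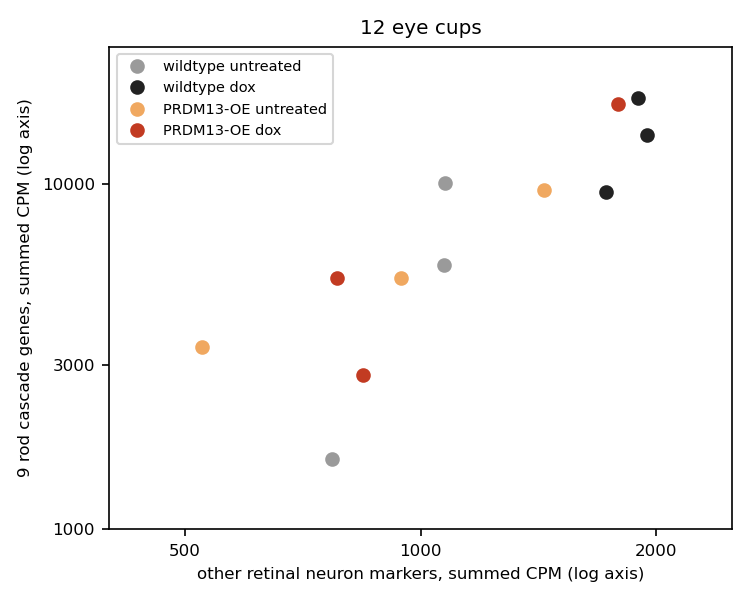
Summed CPM of the 9 rod cascade genes against summed CPM of the other retinal neuron markers in the 12 eye cups (both axes log), with a point per eye cup coloured by group. The rod sum runs from 1597 to 17839 CPM and the neuron sum from 525 to 1945 CPM, and the eye cups are not in the same order on both axes. Groups overlap on the rod axis. On the neuron axis, wildtype dox eye cups (1724 to 1945 CPM) lie above all untreated eye cups (525 to 1436 CPM) and overlap PRDM13-OE dox eye cups (782 to 1785 CPM).

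None of the 9 members passed in the 5 eye cup comparisons with edgeR. For PRDM13-OE dox against wildtype dox, 0.0184% of the 21758 genes passed at any fold, log2 fold changes ran from -0.95 (Cnga1) to 0.05 (Gngt1), and standard errors from 0.51 to 0.80. Gnat1 measured 1445, 800 and 5245 CPM against 6261, 4427 and 3039 CPM, and Cnga1 118, 52.9 and 329 CPM against 431, 327 and 240.2 CPM. In both genes PRDM13-OE eye cups 1 and 2 were below all wildtype dox eye cups and eye cup 3 was not. Without PRDM13-OE dox eye cup 3, 5 members were called (Gnat1, Pde6a, Pde6g, Cnga1 and Cngb1), with log2 fold changes from -1.94 to -1.51; 8.32% of all genes were called in that fit (1767), against 4 genes with all 6 eye cups. With the neuron marker level as a covariate over 12 eye cups, 7 of the 9 estimates turned positive, from 0.11 to 0.45, with adjusted p from 0.992 to 0.997. Unadjusted p values were below 0.05 for 0 members, and DESeq2 gave 0.

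The other eye cup comparisons were as follows. For PRDM13-OE dox against PRDM13-OE untreated, 0.0139% of 21604 genes passed, and all 9 members had positive log2 fold changes from 0.25 to 0.82, 0 with an unadjusted p below 0.05 and 0 with DESeq2. Of the 22 neuron markers, 20 were above 0 and 2 below (median 0.69). Of the 12 RPE and pigment genes, 11 were below 0 and 1 above (median -0.94). For wildtype dox against wildtype untreated, 0% of 21799 genes passed, and all 9 members were positive, from 0.91 (Gngt1) to 1.54 (Cnga1). Leaving out 1 eye cup moved Gngt1 between 0.42 and 1.47 and Cnga1 between 1.08 and 2.42, and with the neuron marker level as a covariate 4 of the 9 turned negative (Gnat1 -0.18, Gngt1 -0.47, Pde6g -0.08 and Sag -0.39). There, 3 members had an unadjusted p below 0.05, as did 29.9% of all genes tested (6517). DESeq2 called Cnga1 (adjusted p = 0.0405) and 9.08% of all genes (1979). Without wildtype untreated eye cup 1, edgeR called 4 members and 9.41% of all genes (1991). In the same comparison the 22 neuron markers had a median log2 fold change of 1.97 and summed to 1724 to 1945 CPM with dox and 771 to 1074 CPM without, and the 12 RPE and pigment genes had a median of -1.07. For untreated PRDM13-OE against untreated wildtype, 0% of 21588 genes passed, and members ran from -0.01 to 0.48; for the interaction, 0% of 23837 genes passed, and members ran from -1.08 to -0.46. In both comparisons, 0 members had an unadjusted p below 0.05 and 0 passed with DESeq2.

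In the eye cups, 3 of the 11 ratios were lower in all PRDM13-OE dox libraries than in all wildtype dox libraries and 1 was higher. In retinas 8 were lower and 0 higher. Ratios of other gene pairs were not taken, so no share over all genes stands beside these numbers. Cnga1 over Pde6b was 0.262, 0.268 and 0.262 in the PRDM13-OE dox eye cups, 0.334, 0.314 and 0.353 in wildtype dox eye cups, and 0.292 to 0.377 in the untreated ones. All 3 were below the other 9 eye cups, as in the retinas of the same mice. Of the 11 ratios, it was the 1 that did so in eye cups, where 5 did in retinas. Pde6a over Pde6b was 1.06 to 1.12 against 1.23 to 1.29 in wildtype dox eye cups, and overlapped the untreated ones. Gnat1 over Pde6b was 3.21, 4.05 and 4.18 against 4.86, 4.26 and 4.47 in wildtype dox eye cups, and Gngt1 over Pde6b, at 0.272 to 0.358, was above the wildtype dox group. Sag over Pde6b, 1.20 to 2.38, overlapped wildtype dox (1.88 to 2.08).

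The genes most like the members were ranked by the correlation of log2(CPM + 1) with the members' mean, over 12 libraries that include the group differences. In retinas they were Adamts3 (r = 0.969), Gm42697 (0.968), Cfap61 (0.963), Tdrd7 (0.962) and Pla2r1 (0.962), of 10213 genes with a mean of at least 10 CPM. In eye cups they were Prph2 (0.997), Reep6 (0.996), Guca1b (0.995), Tlcd3b (0.993) and Crx (0.993), of 10657. The retina and eye cup lists shared no gene.

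Gene overlaps bear on the counts of 4 members. An lncRNA lies opposite Gnat1 and had 164 to 279 counts per retina beside 89497 to 175731 for Gnat1. The pseudogenes Gm13171 (0 to 4 counts) and Rps2-ps10 (117 to 184 counts) lie opposite Gnb1 and Pde6a, and Gm5297 (2 to 22 counts) lies on the strand of Cnga1, which had 10067 to 19267 counts. Whether counting used strand was not given in the sources used here.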

How the data were processed

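RNA was poly(A)-selected and sequenced for the authors by Novogene; the submitters' processing notes name CASAVA, HISAT2 and the build GRCm39, with no versions, and the counting tool was not given in the sources used here. For each gene and library the authors deposited raw read counts, and these counts entered every test. The authors also deposited FPKM values, used for comparing levels between genes, and gene lengths in bases, a value with no other role; each FPKM of a gene with at least 100 counts was the count over that length (100% within 0.1%). Another 60 columns, the authors' own comparisons, were not used.

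Genes whose counts reached 10 in sum over the libraries of a fit were tested with edgeR 4.0.16 (R 4.3.3, TMM, quasi-likelihood test, robust fitting off) and Benjamini-Hochberg adjustment over all of them. Called genes had an adjusted p below 0.05 and a log2 fold change past 1, and "at any fold" means the adjusted p alone. CPM used TMM factors of the 12 libraries of a tissue. Alternatives were DESeq2 1.42.0, library size scaling, no filter, filterByExpr, robust fitting, all 12 libraries in one fit, a replicate block, covariates and leaving out each library. Tests were tried on simulated data. Retina and eye cup of 1 number came from 1 mouse, by the labels. In untreated wildtype mice their deviations from the group means correlated weakly (r = 0.131, 0.135 and 0.0861). Different mice that shared a number gave values as large, as in wildtype dox and untreated retinas (0.167, -0.0277 and 0.257). With the pairing of retina and eye cup as a block, all 9 members were still called. Replicate libraries were not copies: their chi-square over degrees of freedom was at least 3.80. P-values measure the spread between the 3 mice of a group.

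Named were all 9 members, the 10 marker and pathway lists as counts with single genes where a result turned on them, and the 5 most alike genes per tissue. The Gnat2, Arr3, Pde6c, Cnga3, Grk1, Rgs9, Slc24a1, Guca1a, Gucy2e, Gnb5, Nrl, Nr2e3 and Crx values were picked from those lists after they were seen. Members and lists were chosen with earlier results of these data known, and the ratios after the fold changes were seen. Promoters came from RefSeq (GRCm38.p6), and python 3.11.15, numpy 2.4.6, scipy 1.17.1 and matplotlib 3.10.9 were used.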

Additional observations from a re-analysis of the deposited data

Results flagged for a closer look

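Among the 9 rod cascade genes, 2 had a difference with dox that depended on genotype in the retina, by edgeR's test of the interaction over 12 retinas. At any fold, 1.83% of the 22538 genes tested were lower in it. So were 4 of the 5 blood genes, and all 15 crystallins had estimates below 0. Gnat1 had an interaction of -0.43 on the log2 scale (adjusted p = 0.00263), with log2 fold changes on dox of -0.52 in PRDM13-OE and -0.09 in wildtype mice. Cnga1 had an interaction of -0.40 (adjusted p = 0.00534), with -0.47 in PRDM13-OE and -0.08 in wildtype mice.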

How the results depend on the processing

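In the retina with dox, 6 members were lower at any fold. The number was 3 with library size scaling, 3 with all 12 retinas in one fit, 1 with the crystallin covariate, and 3 to 5 with 1 retina left out. The shares of all genes at any fold were not counted under these settings. A change particular to the members therefore cannot be read from these numbers. With no fold cutoff the numbers called were 6 between dox retinas, 5 for PRDM13-OE dox against untreated (3 to 5 with 1 retina left out) and 2 for the interaction, in place of 0. Without the low count filter, 3 members passed in wildtype dox against untreated and 4 in the interaction, in place of 0 and 2 (2.07% and 4.64% of all genes then tested). In eye cups, 0 to 5 members were called for PRDM13-OE dox against wildtype dox and 0 to 4 for wildtype dox against untreated with 1 eye cup left out, and DESeq2 called 1 in the latter. Retina against untreated eye cup gave 3 to 9 with 1 library left out. In those fits 8755 to 10501 of all genes were called in either direction.

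Reversed log2 fold changes were of members that did not pass. With library size scaling Gnb1, Pde6a and Pde6b were 0.0563, 0.0533 and 0.0557 between dox retinas, and Pde6a and Pde6b 0.0035 and 0.0033 for PRDM13-OE dox against untreated; with the crystallin covariate Pde6b was 0.0087. Leaving out 1 library, Pde6a ran from -0.0809 to 0.0013 between dox retinas, Pde6g from -0.0394 to 0.0407 on dox in wildtype, and Gngt1 and Pde6a from -0.21 to 0.0040 and from -0.0211 to 0.0919 in the interaction. Between dox eye cups Gngt1 was -0.44 with the replicate block, -0.0020 with all 12 in one fit and -1.04 to 0.49 with 1 left out, and with the neuron covariate Gnat1, Gnb1, Pde6a, Pde6b, Pde6g, Cngb1 and Sag were 0.11, 0.12, 0.15, 0.29, 0.38, 0.11 and 0.45. With that covariate, Gnat1, Gngt1, Pde6g and Sag were -0.18, -0.47, -0.0809 and -0.39 for wildtype dox against untreated eye cups. The causes were not tested. The mouse number does not pair mice of different groups (correlations from -0.65 to 0.71); as a replicate block it left 5 members lower at any fold between dox retinas, and no other count of members moved.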
